A study of Mus musculus with 12 samples.

Results

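The death receptors measured here are cell-surface proteins of the tumour necrosis factor receptor superfamily, taken with the intracellular proteins that carry their signal. The set was fixed by gene symbol, with earlier results of these data known, and holds 9 of the 25078 genes in the tables. It has 5 receptors (Fas, Tnfrsf10b, Eda2r, Tnfrsf1a and Tnfrsf1b) and 4 signalling proteins (Fadd, Casp8, Cflar and Ripk1). All 9 passed the filter on low counts and were among the 14599 genes tested. RNA was sequenced from mouse LSK cells, the lineage-negative Sca1+ Kit+ fraction of bone marrow that holds stem and multipotent progenitor cells. Cells came from wild-type mice (WT, called control in the sample titles) or from mice carrying Cbfb-MYH11 (CM) at the preleukemic stage. Cbfb-MYH11 is the fusion gene of inversion 16 acute myeloid leukemia. After sorting, the cells of each animal were either exposed to 3.5 Gy of ionising radiation (IR) or put through the same incubation without it (NIR), and were collected 24 h later. The 4 groups (WT NIR, WT IR, CM NIR and CM IR) held 3 libraries each, and the animal numbers in the labels tie the 12 libraries to 6 animals with 1 NIR and 1 IR library each. Age, sex, strain and the way the fusion gene was induced were not given in the sources used here. The library names mark WT animals 1 and 3 with C, WT animal 2 with WT and all CM animals with CHW. What C and CHW stand for is not stated.

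Fas and the TRAIL receptor encoded by Tnfrsf10b carry a death domain in their cytoplasmic tail. Once ligand is bound they recruit the adaptor FADD, which brings caspase-8 molecules together so that they activate each other, while c-FLIP, the product of Cflar, takes the place of caspase-8 and restrains it. TNF receptor 1 (Tnfrsf1a) works through a separate complex built on the kinase RIPK1, which can lead to NF-kB signalling, apoptosis or necroptosis, and TNF receptor 2 (Tnfrsf1b) has no death domain. In many tissues Fas, Tnfrsf10b and Eda2r are known p53 target genes, and p53 is the main transcription factor activated by radiation damage to DNA.

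Total gene counts ran from 68.5 to 110.8 M per library. The labelled sort was compared with marker genes: Kit was between 148 and 284 CPM (counts per library total, the total multiplied by the library's TMM factor) and Ly6a, which encodes Sca1, between 42.0 and 457 CPM, in all 12 libraries. Markers of other lineages were also read. The 10 monocyte and macrophage markers were all above 0 in every library, and their summed level was 722 to 1716 CPM in WT NIR, 863 to 1259 in WT IR, 391 to 2246 in CM NIR and 548 to 2516 in CM IR. CM animal 2 stood apart from the other CM animals, with the lowest sum of all libraries in NIR and in IR. The 9 mast cell and basophil markers summed to 251 to 693 CPM in WT NIR, 281 to 495 in WT IR, 304 to 1825 in CM NIR and 362 to 1582 in CM IR. Of 10 mature neutrophil markers, 1 was called higher and 2 lower in CM NIR than in WT NIR (137 and 100 of 14599 genes tested). Their mean log2 CPM went from 0.29 in the NIR library of CM animal 3 to 2.23 in its IR library, while their summed level fell from 1562 to 706 CPM. The mean log2 CPM of the 8 LSK markers went from 4.34 to 5.70 between the same libraries. The 11 T and NK cell markers summed to 51.3 to 290 CPM, and the sum was highest in the 4 libraries of CM animals 1 and 3, at 213 CPM or more. Most single markers went the other way. Of the 7 tested, 1 had a positive CM against WT value without irradiation (median log2 value -1.0) and 1 after it (median -0.61). In this list Gzmb, which encodes a cytotoxic granule protease, ran from 21.3 to 278 CPM, while Cd3e, which defines T cells, stayed at or below 0.389 CPM. Of the 13 erythroid markers, 4 haemoglobin genes were listed at 0 in all 12 libraries, but the transferrin receptor gene Tfrc ran from 373 to 780 CPM and Car2 from 62.5 to 171 CPM. All 9 erythroid markers tested had negative averaged changes with irradiation, with a median of -1.30 (-1.80 in WT). With the animal as a block, 2 of them were called lower in the averaged response, against 95 of all 14599 genes tested. The part of these marker changes in the irradiation responses below was not tested. In bulk RNA, fewer cells of a type and less RNA per cell cannot be told apart. The irradiation response was read from Trp53inp1, Mdm2 and Cdkn1a, which are p53 targets. Trp53inp1 rose by 2.10 ± 0.12 (log2, standard error) in WT (adjusted p 8.75e-05) and by 1.39 ± 0.12 in CM (adjusted p 0.00421). Mdm2 rose by 0.73 in WT (adjusted p 0.0274) and gave 0.33 in CM (adjusted p 1). Cdkn1a gave 1.15 in WT (adjusted p 0.221) and 0.59 in CM (adjusted p 1), where the change was 0.11 in animal 3 and 1.24 in animal 2.

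Of the 9 genes, 2 receptors rose after irradiation when the response was averaged over both genotypes, namely Eda2r and Tnfrsf10b, and none fell. Over all genes tested, 0.301% were called higher in that comparison. The 9 genes were chosen with earlier results of these data known, so setting them beside this share is no test. The genes of the 4 signalling proteins lay within 0.15 log2 units of their unirradiated RNA level in each of the 6 animals. Fas, Tnfrsf1a and Tnfrsf1b were not called by edgeR in any comparison between groups. Positions below are those of the deposited tables on build mm10, 1 span per gene.

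RefSeq promoter windows (GRCm38.p6, the build called mm10), 250 bases upstream of the annotated start, were matched for 8 of the 9 genes, and no window was matched for Tnfrsf10b. They are shown for the receptor with the largest response, for Fas as another p53 target that was not called, and for Casp8, whose window is the only one among these genes with the core site of RUNX proteins, the DNA-binding partners of CBFB. Lower case is the reference strand of the gene, 5′ to 3′, and capitals mark matches on either strand to the SP1 box GGGCGG, the TATA box TATAAA or the RUNX core TGTGGT.
Eda2r, chrX:97377210-97377459, minus strand: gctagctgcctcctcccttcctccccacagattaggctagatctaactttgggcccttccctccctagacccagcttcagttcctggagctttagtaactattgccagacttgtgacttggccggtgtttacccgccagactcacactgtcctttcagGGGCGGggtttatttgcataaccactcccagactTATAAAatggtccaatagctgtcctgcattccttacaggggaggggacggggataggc
Fas, chr19:34290409-34290658, plus strand: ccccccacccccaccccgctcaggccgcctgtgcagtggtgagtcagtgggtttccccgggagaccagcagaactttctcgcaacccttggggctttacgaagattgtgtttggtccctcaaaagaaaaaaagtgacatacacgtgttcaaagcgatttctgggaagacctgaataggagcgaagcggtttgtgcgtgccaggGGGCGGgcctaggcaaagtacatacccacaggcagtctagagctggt
Casp8, chr1:58802252-58802501, plus strand: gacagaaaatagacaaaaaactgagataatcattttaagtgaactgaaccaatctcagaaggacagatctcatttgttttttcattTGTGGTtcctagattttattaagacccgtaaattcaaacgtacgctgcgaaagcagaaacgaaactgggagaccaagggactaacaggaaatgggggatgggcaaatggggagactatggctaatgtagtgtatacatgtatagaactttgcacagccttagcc

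In the Eda2r window the SP1 box begins 92 bases before the start and the TATA box 58 bases before it. The Fas window has an SP1 box 47 bases before the start. Casp8 has the RUNX core 164 bases before the start, and this window lies inside the span that the tables give to Casp8. Of all 32851 RefSeq windows of this length, 32.7% hold the SP1 box, 12.4% the TATA box and 14.0% the RUNX core. The p53 half-site, which is 1 of the 2 parts of a full p53 element and is present in 7.13% of all windows, and the NF-kB site, present in 7.25%, matched in none of the 9 windows of the 8 genes (Ripk1 has more than 1). These letters were searched for in this window only, so elements elsewhere in a gene were not tested.

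Eda2r (chrX:97333841-97377209, minus strand) encodes a receptor for the A2 form of ectodysplasin. Its level in WT NIR was 1.33, 0.782 and 1.08 CPM in animals 1, 2 and 3, and in WT IR it was 22.5, 25.4 and 26.8 CPM. In CM NIR it was 0.585, 1.0 and 0.337 CPM, and in CM IR 2.74, 17.8 and 3.64 CPM. All 6 IR libraries lay above all 6 NIR libraries, WT IR was tight, and CM IR was spread, with animal 2 nearest the WT IR level and animals 1 and 3 far under it. These values rest on 25 to 92 counts per NIR library and on 228 to 3049 counts per IR library. The within-animal log2 changes were 4.06, 4.98 and 4.61 in WT and 2.18, 4.12 and 3.34 in CM.

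Averaged over both genotypes, Eda2r rose by 4.10 ± 0.50 (log2), a 17.2-fold increase with a 95% interval of 7.93 to 37.1 (edgeR quasi-likelihood test, adjusted p 0.00914). Among the 14599 genes tested this was the change of rank 1 by size and of rank 11 by p. In WT alone the fold change was 23.5 (95% interval 7.77 to 71.1) with an adjusted p of 0.0527, just over the threshold of 0.05, and with the animal as a block it passed (4.58 ± 0.36, adjusted p 0.0123). In CM alone the fold change was 12.5 (4.27 to 36.7), with an adjusted p of 0.547 without the block and 0.188 with it. Without the IR library of CM animal 2 the CM change fell from 3.65 to 2.31 on the log2 scale. Leaving out 1 library kept the averaged call in 11 of 12 cases, the exception being WT NIR animal 3 (adjusted p 0.0506). Leaving out both libraries of an animal kept it in 2 of 6 cases, and it was lost without WT animal 1, 2 or 3 (adjusted p 0.0872, 0.143 and 0.205) or CM animal 3 (0.0522), with the log2 change between 3.67 and 4.27.

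Tnfrsf10b (chr14:69767472-69784411, plus strand) encodes the mouse TRAIL receptor with a death domain. In WT NIR it stood at 8.10, 10.4 and 10.9 CPM, and in WT IR at 25.4, 27.2 and 28.9 CPM. In CM NIR it stood at 6.45, 10.3 and 8.0 CPM, and in CM IR at 9.78, 24.5 and 15.3 CPM. The WT groups did not overlap, whereas the IR library of CM animal 1 lay under the NIR library of CM animal 2. Within animals the log2 changes were 1.65, 1.38 and 1.40 in WT and 0.60, 1.25 and 0.93 in CM, so every animal went up.

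Over both genotypes Tnfrsf10b rose by 1.23 ± 0.21 (log2), a 2.35-fold increase with a 95% interval of 1.71 to 3.25 (adjusted p 0.0463). The fold change was 2.77 (1.75 to 4.37) in WT, where the adjusted p was 0.156 without and 0.0160 with the animal as a block. In CM it was 2.0 (1.27 to 3.15), with adjusted p values of 1 and 0.234, and leaving out CM IR animal 2 gave a log2 change of 0.60 there in place of 1.0. The averaged call was close to the threshold: it held in 3 of 12 fits that left out 1 library and in 2 of 6 that left out an animal, with the adjusted p between 0.00886 and 0.441. With library-number series as a term it was 0.0699, where series split the libraries into lower and higher library numbers. The labels give the numbers only, and the split was made here. The log2 change stayed between 1.03 and 1.37 in all 18 of these left-out fits.

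**Figure D1:**
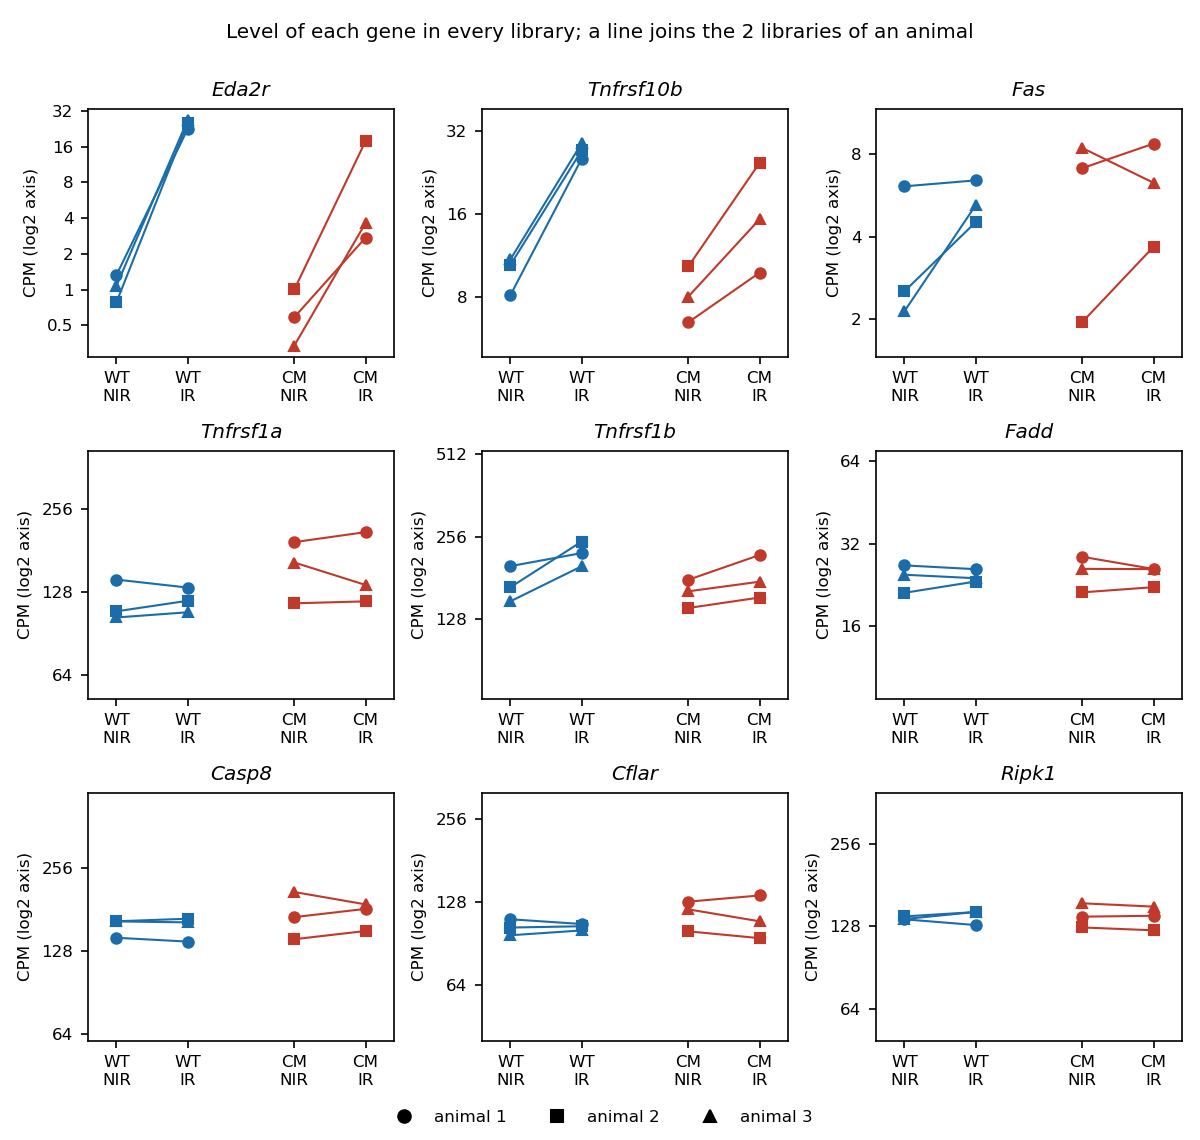
Level of each of the 9 genes in the 12 libraries, in CPM on a log2 axis; each line joins the NIR and IR library of 1 animal, blue for WT and red for CM, and the marker shape gives the animal number. Eda2r and Tnfrsf10b climb in all 6 animals, Fas starts high in WT animal 1 and in CM animals 1 and 3, and the lines of Fadd, Casp8, Cflar and Ripk1 are close to level.

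Fas (chr19:34290659-34327770, plus strand), the receptor of Fas ligand, varied more between animals than with irradiation. The 3 WT NIR libraries gave 6.10, 2.53 and 2.14 CPM and the WT IR libraries 6.41, 4.51 and 5.20 CPM. The CM NIR libraries gave 7.10, 1.96 and 8.41 CPM and the CM IR libraries 8.72, 3.67 and 6.28 CPM. All 4 groups overlapped, and 5 of 6 animals were higher in IR, with CM animal 3 lower. The log2 changes were 0.07, 0.83 and 1.27 in WT and 0.29, 0.90 and -0.42 in CM. The animals with little Fas in NIR had the larger changes. Each change subtracts the NIR value, so this relation is in part built into the measure and was not tested. The fitted change was 0.58 ± 0.55 in WT (95% interval -0.63 to 1.80, adjusted p 1) and 0.10 ± 0.55 in CM (-1.11 to 1.31, adjusted p 1). Leaving out 1 library moved the WT value to between 0.32 (without NIR animal 3) and 1.202 (without NIR animal 1). These intervals reach past a 3-fold increase in WT, where the upper bound is 3.48-fold.

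The 6 libraries with the most Fas were the same 6 that had the highest summed level of monocyte and macrophage markers, namely both libraries of WT animal 1 and of CM animals 1 and 3. In those 6 libraries the marker sum ran from 1259 to 2516 CPM and Fas from 6.10 to 8.72 CPM, and in the other 6 the sum ran from 391 to 1000 CPM and Fas from 1.96 to 5.20 CPM. The split was not particular to this list. The same 6 libraries had the highest mast cell and basophil sums, at 495 CPM or more against 362 or less. They also had the highest T and NK cell sums, at 105 CPM or more against 93.0 or less. Their LSK marker sums were the lowest, at 1062 CPM or less against 1069 or more. Erythroid, mature neutrophil and B cell sums did not divide the libraries this way. The same 6 libraries were also the highest 6 for Tnfrsf1a, Fadd and Cflar. Tnfrsf10b, Eda2r, Ripk1, Tnfrsf1b and Casp8 shared 2 to 4 of their highest 6 with the monocyte and macrophage markers. The part of any of these cells in the levels was not tested.

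**Figure D2:**
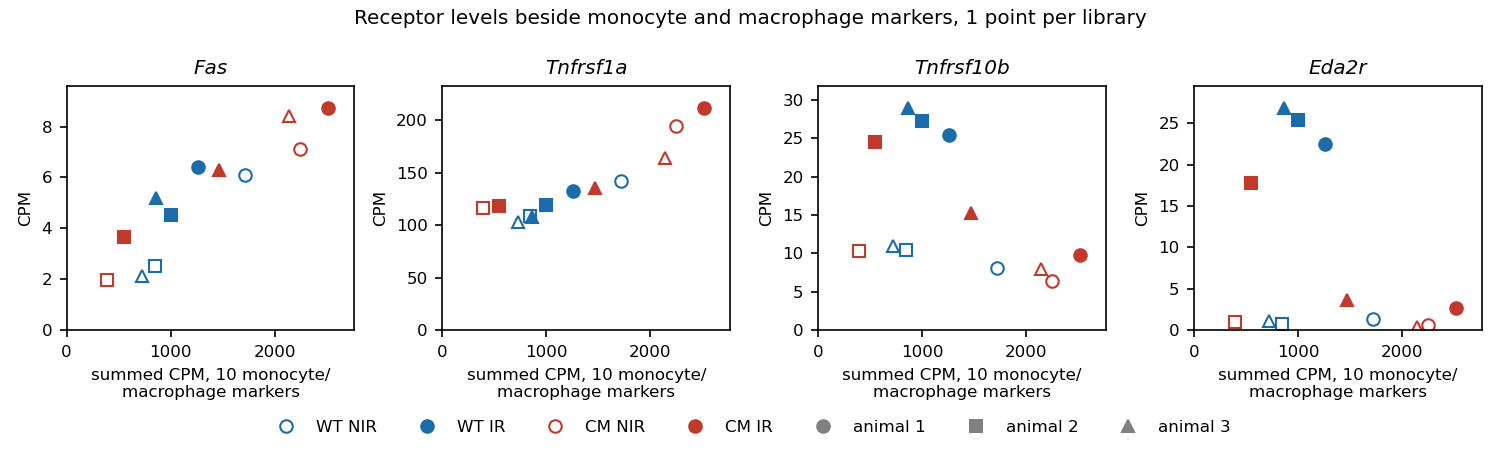
CPM of Fas, Tnfrsf1a, Tnfrsf10b and Eda2r (vertical axes) against the summed CPM of 10 monocyte and macrophage markers (horizontal axes), 1 point per library; open points are NIR, filled points IR, blue WT, red CM, and shapes give the animal. Fas and Tnfrsf1a are high where the marker sum is high, in libraries that other marker lists also set apart. For Eda2r and Tnfrsf10b the IR libraries of CM animals 1 and 3, with sums of 2516 and 1469 CPM, lie under those of the other 4 animals.

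Tnfrsf1a (chr6:125349723-125362483, plus strand), TNF receptor 1, showed little movement with irradiation. Its levels were 142, 109 and 103 CPM in WT NIR against 133, 119 and 108 in WT IR, and 194, 116 and 164 in CM NIR against 211, 118 and 136 in CM IR. The highest libraries were those of CM animal 1 in either treatment, and 4 of 6 animals were higher in IR, by at most 0.13 on the log2 scale. The fitted changes were 0.02 ± 0.24 in WT (95% interval -0.51 to 0.55) and -0.03 ± 0.24 in CM (-0.56 to 0.50).

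Tnfrsf1b (chr4:145212368-145246870, minus strand), TNF receptor 2, had higher values in IR in 6 of 6 animals, by small amounts. It stood at 199.99, 168 and 149 CPM in WT NIR and at 223, 246 and 199.7 CPM in WT IR. In CM the values were 178, 141 and 162 CPM in NIR and 220, 154 and 175 CPM in IR. The groups of each genotype overlapped, since WT animal 1 began where WT animal 3 ended. The fitted mean over both genotypes was 0.28 ± 0.11 (a fold of 1.21, 95% interval 1.02 to 1.44), which did not pass the test (adjusted p 0.776, and 0.0644 with the animal as a block). Of all genes tested, 5.93% were higher in IR in all 6 animals, and 3 of the 9 genes were: Eda2r, Tnfrsf10b and Tnfrsf1b.

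Fadd (chr7:144578323-144582441, minus strand), the death domain adaptor, ran from 21.2 to 28.6 CPM over all 12 libraries. Casp8 (chr1:58795374-58847503, plus strand), the initiator caspase, ran from 139 to 210.1 CPM. Cflar (chr1:58711491-58758882, plus strand), the caspase-8 inhibitor next to it, ran from 94.7 to 135 CPM. Ripk1 (chr13:34002363-34035170, plus strand), the kinase at TNF receptor 1, ran from 124 to 155 CPM and was the least variable of the 9 genes, with an SD of 0.10 in log2 CPM over the 12 libraries against 2.31 for Eda2r. None of the 4 moved the same way in all 6 animals. An antisense gene overlaps Fadd, and Serpinb6a overlaps Ripk1 on the opposite strand. Since the strand setting of the counting is not given, reads of these partners cannot be told apart from theirs.

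The fitted WT changes of these 4 genes lay between -0.0071 and 0.02 on the log2 scale, and the CM changes between -0.04 and 0.0046. Their 95% intervals, from the fit without the block, give the uncertainty of the mean change. In WT these were -0.28 to 0.31 for Fadd, -0.34 to 0.32 for Casp8, -0.29 to 0.30 for Cflar and -0.19 to 0.24 for Ripk1. Neither edgeR nor the other tools called any of the 4 in any comparison. The ratio of Casp8 to Cflar, taken per length from RPKM (reads per kilobase of exon, scaled to library size), was 4.45 ± 0.61 in WT NIR, 4.40 ± 0.52 in WT IR, 4.36 ± 0.65 in CM NIR and 4.56 ± 0.58 in CM IR (SD, n = 3). These 4 means differed by less than the spread between replicates.

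On the RPKM scale, which allows levels of different genes to be compared, the order in WT NIR was Tnfrsf1a (54.0 ± 9.24, SD, n = 3), Casp8 (53.7 ± 4.46), Tnfrsf1b (34.5 ± 5.01), Ripk1 (27.9 ± 0.51), Cflar (12.1 ± 0.76), Fadd (8.28 ± 0.91), Tnfrsf10b (3.05 ± 0.48), Fas (1.96 ± 1.18) and Eda2r (0.180 ± 0.045). Tnfrsf1a overlapped Casp8 and Tnfrsf10b overlapped Fas, and the other neighbours were separate in every library. In WT IR, Tnfrsf10b (8.47 ± 0.54) stood level with Fadd (8.38 ± 0.45), and Eda2r (4.24 ± 0.37) had passed Fas (2.95 ± 0.53) with no overlap. In CM NIR the order differed from WT NIR only in Fas (3.17 ± 1.85) and Tnfrsf10b (2.55 ± 0.61), whose ranges overlapped. In CM IR, Tnfrsf10b (5.14 ± 2.34), Fas (3.41 ± 1.38) and Eda2r (1.37 ± 1.45) followed each other, and Fas overlapped both of the others.

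Within WT, 0 of the 9 genes were called without the block (0.116% of all genes were) and 2 with it, Eda2r and Tnfrsf10b (0.938% of all genes were called higher). At an unadjusted p under 0.05 there were 3, these and Tnfrsf1b (4.05% of all genes), and DESeq2 called 2 (0.76% of all genes called higher) and limma-voom 1 (0.205%). The IR libraries lay above the NIR libraries with no overlap for the same 2 genes, as they did for 7.47% of all genes. Within CM, edgeR called 0 of 9 without or with the block (0.00685% and 0% of all genes), 2 had an unadjusted p under 0.05 (1.62%), DESeq2 called 1 (0.123%) and limma-voom 0 (0.00685%). Eda2r was the gene of the 9 whose CM groups did not overlap, with IR above NIR, as for 1.57% of all genes.

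The CM response was lower than the WT response for Eda2r and Tnfrsf10b in the fitted values, but the difference of the responses did not pass the test. For Eda2r the CM response minus the WT response was -0.91 ± 0.90 (95% interval -2.91 to 1.09), and for Tnfrsf10b it was -0.47 ± 0.41 (-1.38 to 0.45), both with an adjusted p of 1. Leaving out 1 library moved the Eda2r value to between -2.25 (without CM IR animal 2) and -0.43 (without CM NIR animal 2). It moved the Tnfrsf10b value to between -0.87 (without CM IR animal 2) and -0.20 (without CM IR animal 1). With the animal as a block the values were -1.24 ± 0.50 and -0.54 ± 0.18, again with adjusted p values of 1. The within-animal changes of Tnfrsf10b were smaller in all 3 CM animals than in all 3 WT animals, as they were for 3.56% of all genes, while those of Eda2r overlapped. edgeR called 0 of the 14599 genes in this comparison (0%), as did DESeq2 and limma-voom, and 0 of the 9 had an unadjusted p under 0.05, against 0.726% of all genes.

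**Figure D3:**
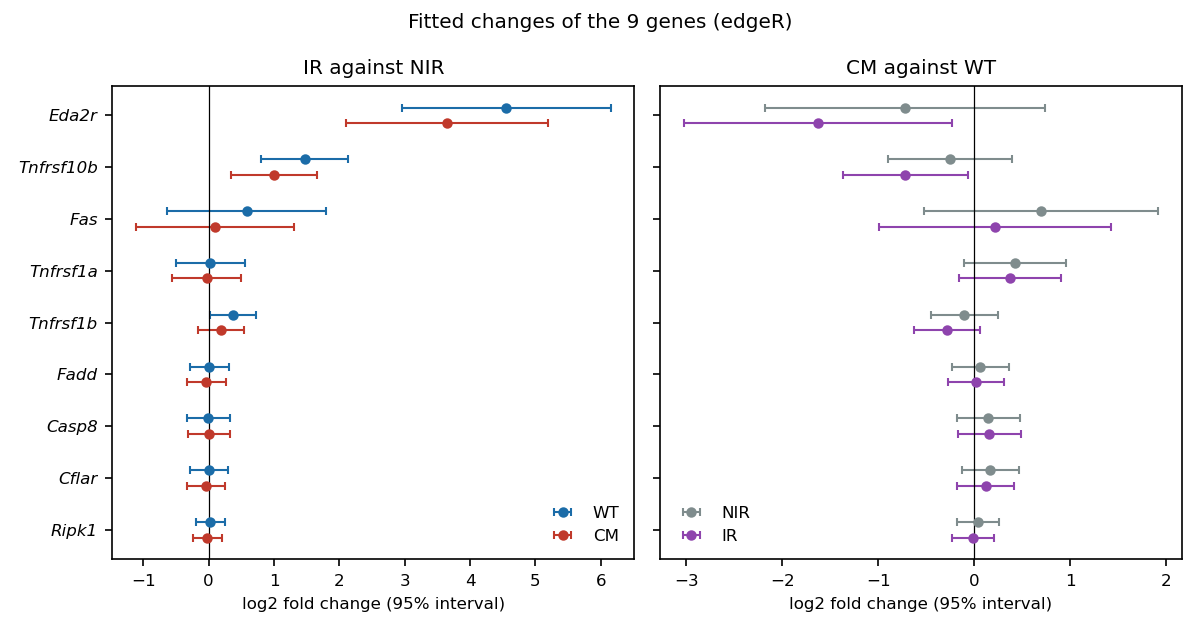
Fitted log2 fold changes of the 9 genes with 95% intervals (edgeR); left, IR against NIR in WT (blue) and CM (red), right, CM against WT without irradiation (grey) and after it (purple). The intervals of Eda2r and Tnfrsf10b lie above 0 on the left in both genotypes and under 0 on the right after irradiation, and those of Fadd, Casp8, Cflar and Ripk1 stay between -0.34 and 0.48.

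Between genotypes without irradiation, edgeR called 0 of the 9 genes (1.62% of all genes were called), DESeq2 and limma-voom called 0 (6.32% and 1.49%), and 0 had an unadjusted p under 0.05 (15.1%). This comparison uses the NIR libraries that also serve as the baseline of the irradiation responses. The largest fitted values were -0.72 ± 0.66 for Eda2r (95% interval -2.18 to 0.74), 0.70 ± 0.55 for Fas (-0.52 to 1.92) and 0.42 ± 0.24 for Tnfrsf1a (-0.11 to 0.95). The CM NIR and WT NIR libraries overlapped for all 9 genes, whereas 8.14% of all genes lay wholly higher and 7.84% wholly lower in CM. Without both libraries of CM animal 2 the Eda2r value was -1.19 (adjusted p 0.0312), in a fit that called 2497 genes against 237 with all libraries.

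After irradiation, edgeR again called 0 of 9 genes (0.664% of all genes were called), DESeq2 and limma-voom called 0 (4.47% and 1.07%), and 2 had an unadjusted p under 0.05 (11.8%). The 2 were Eda2r and Tnfrsf10b, and their CM IR libraries all lay under their WT IR libraries, as for 8.36% of all genes. Eda2r was 1.63 ± 0.63 log2 units lower in CM (a fold of 0.324, 95% interval 0.123 to 0.854, adjusted p 0.321), and Tnfrsf10b gave a fold of 0.608 (0.388 to 0.954, adjusted p 0.351).

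Both values depended on CM animal 2. Without its libraries the log2 difference was -2.97 for Eda2r (adjusted p 0.00266) and -1.12 for Tnfrsf10b (adjusted p 0.0220), and without its IR library alone the adjusted p for Eda2r was 0.0336. The fit without both libraries called 1000 genes in this comparison, against 97 with all libraries. In the series of lower library numbers, Eda2r in IR was 22.5 CPM in WT animal 1 against 2.74 and 17.8 CPM in CM animals 1 and 2. In the series of higher numbers it was 25.4 and 26.8 CPM in WT animals 2 and 3 against 3.64 CPM in CM animal 3. With series as a term the Eda2r difference was -2.04 (adjusted p 0.241). The CM animals with the low values, 1 and 3, also had the higher monocyte and macrophage sums and the higher mast cell and basophil sums. The latter were 1030 to 1582 CPM in IR, against 281 to 495 CPM in the other 4 IR libraries. The IR library of WT animal 1 had 22.5 CPM of Eda2r beside a monocyte and macrophage sum of 1259 CPM. That sum was 1469 CPM in the IR library of CM animal 3, beside 3.64 CPM of Eda2r. The part of these cells in the difference was not tested.

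Other genes of the pathway were read from 7 lists by role, 69 genes in all, of which 67 were tested. Averaged over both genotypes, 1 of the 67 rose after irradiation and 0 fell, and with the animal as a block 3 rose (1.42% of all genes were called higher with the block). The gene called without the block was Tnfrsf11b, which encodes osteoprotegerin, a soluble decoy receptor for RANK ligand that also binds TRAIL. It stood at 0.101, 0.0326 and 0.0640 CPM in WT NIR and at 0.998, 0.499 and 1.46 CPM in WT IR. In CM it stood at 0.0399, 0.191 and 0.0270 CPM in NIR and at 0.444, 0.810 and 0.467 CPM in IR. No IR library overlapped a NIR library, although the NIR values rest on only 2 to 15 counts, and the averaged change was 3.31 ± 0.50 (log2, adjusted p 0.0252).

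The other pathway genes called with the block were Pidd1 and Tnfrsf26. Pidd1 encodes a death domain protein that activates caspase-2 and is a p53 target. It went from 25.8 ± 0.675 to 43.9 ± 5.77 CPM in WT and from 25.6 ± 11.0 to 34.5 ± 16.6 CPM in CM (SD, n = 3), an averaged change of 0.60 (adjusted p 0.776, or 0.0116 in the blocked fit). Tnfrsf26 encodes a mouse receptor close in sequence to Tnfrsf22 and Tnfrsf23, so its counts are less certain. Its averaged change was 0.35 (adjusted p 0.349, and 0.0479 with the block). In the WT animals alone, Tnfrsf11b (3.87) and Pidd1 (0.76) were called with the block, each at an adjusted p of 0.0184.

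By role, the median averaged log2 change was -0.02 for 8 ligands, 0.06 for 9 other death and decoy receptors, -0.01 for 23 genes of the TNF receptor complex and NF-kB branch, and -0.02 for 4 necroptosis genes. It was -0.07 for 8 modulators of the death-inducing complex, -0.07 for 3 genes of the PIDD1 and caspase-2 branch and -0.01 for 12 downstream caspases and mitochondrial genes, against -0.0024 for all genes tested. The medians of the receptors and of the signalling proteins among the 9 genes were 0.34 and -0.01.

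**Figure D4:**
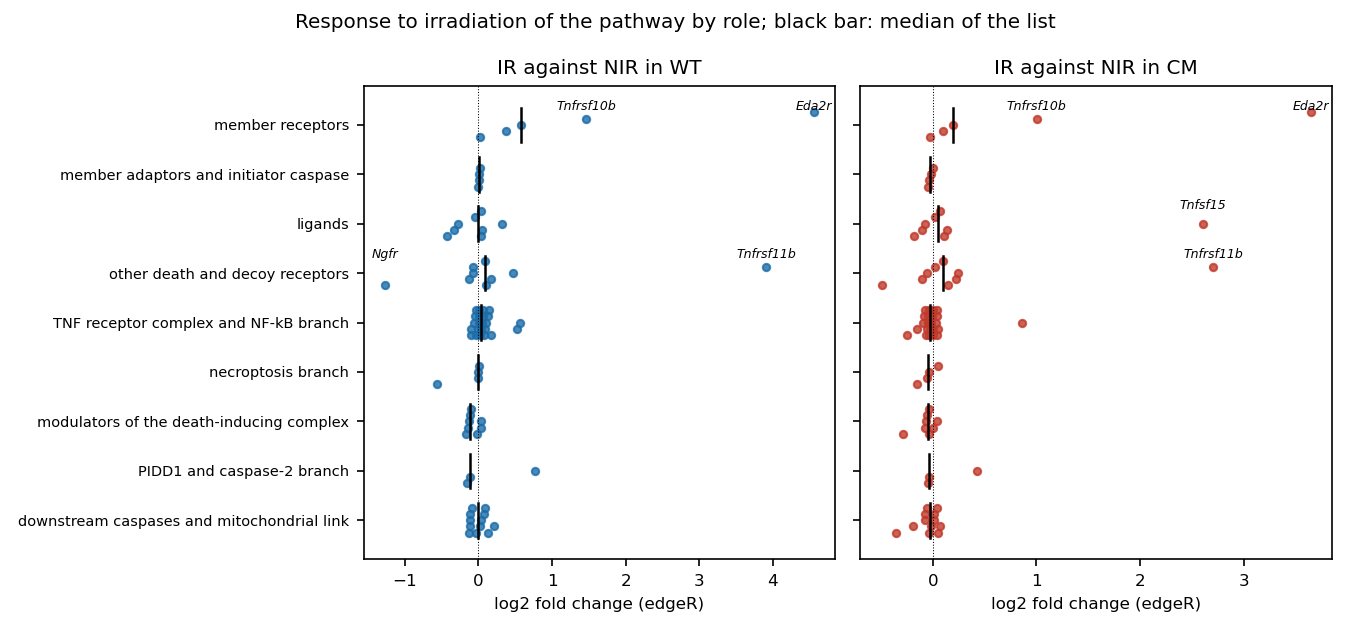
Log2 fold change of IR against NIR (horizontal axis, edgeR) for each tested gene of the 9-gene set and of the 7 pathway lists, 1 point per gene, WT left and CM right; black bars are list medians, and genes past 1 log2 unit are named. Eda2r, Tnfrsf10b and Tnfrsf11b lie to the right in both panels, and most other genes lie near 0.

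Among the ligands, Tnfsf10 (TRAIL, which binds the Tnfrsf10b product) was 19.4 ± 0.521 CPM in WT NIR, 18.8 ± 2.23 in WT IR, 21.9 ± 12.4 in CM NIR and 23.6 ± 5.0 in CM IR (SD, n = 3). Fasl was at 0.130 CPM or less in every library, on 2 to 9 counts, and was not tested. Eda, the gene of ectodysplasin, was between 0.0908 and 0.282 RPKM. Tnf was higher in CM than in WT with no overlap in NIR (12.3 ± 2.21 against 6.39 ± 1.04 CPM), as for 8.14% of all genes. In IR it was 12.9 ± 5.52 CPM in CM against 5.26 ± 0.497 CPM in WT. It did not pass the edgeR test in NIR or IR (adjusted p 0.126 and 0.0654). Ltb, the gene of lymphotoxin beta, went the other way, at 1.39 ± 0.662 CPM in CM IR against 3.63 ± 0.443 in WT IR (adjusted p 0.275). These IR groups did not overlap, as for 8.36% of all genes, whereas the NIR groups did (0.678 to 2.67 CPM in CM, 2.38 to 3.51 in WT). Tnfsf14, which encodes the ligand LIGHT, was the 1 pathway gene of 67 called between genotypes without irradiation, at 88.4 ± 32.5 CPM in CM against 31.4 ± 7.59 CPM in WT (log2 difference 1.49 ± 0.31, adjusted p 0.0434), a share close to the 1.62% of all genes called there. It was 100.01 and 114 CPM in CM animals 1 and 3, which had mast cell and basophil sums of 1384 and 1825 CPM, against 51.7 CPM in CM animal 2, with a sum of 304 CPM. In the IR library of CM animal 3 it was 66.2 CPM beside a sum of 1030 CPM, and the part of these cells was not tested. After irradiation 0 of 67 were called by edgeR (0.664% of all genes), 2 by DESeq2 (4.47%) and 0 by limma-voom (1.07%), and 4 had an unadjusted p under 0.05, that is 5.97% against 11.8% of all genes.

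The genes most like the 3 most variable of the 9 were found by the root mean square difference between log2 CPM profiles over the 12 libraries, each centred on its mean, among 11706 genes. For Eda2r they were Zfp365 (0.395), Ddit4l (0.496) and Zmat3 (0.592), where the median over all candidates was 2.23. Zmat3 ran from 8.38 to 13.7 CPM in NIR and from 28.3 to 157 CPM in IR. For Tnfrsf10b they were Slc19a2 (0.172), Exoc4 (0.228) and Trim7 (0.284), against a median of 0.776. For Fas they were Ccl9 (0.211), Alox5 (0.214) and Mapk13 (0.230), against a median of 0.751. Alox5, the lipoxygenase of leukotriene synthesis, ran from 37.5 to 184 CPM in NIR and from 53.9 to 181 CPM in IR, ranges that overlapped as those of Fas did. The 12 libraries share animals and treatments, so these values describe the profiles and carry no test.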

How the data were processed

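Total RNA was extracted with the AllPrep DNA/RNA/miRNA Universal kit and made into strand-marking libraries with KAPA HyperPrep and RiboErase, per the labels' protocols. bcl2fastq 2.18.0.12, HTSeq 0.6.1p1, TopHat2 and build mm10 are named, per the submitters' processing notes. Their settings, the strand option and the annotation were not given in the sources used here. The authors deposited whole-number gene counts and RPKM values for 12 libraries, and 0 columns belonged to other samples. Counts were tested in edgeR 4.0.16 (R 4.3.3; quasi-likelihood, TMM, filterByExpr with minimum count 10, 1 mean per group, all 12 libraries), with Benjamini-Hochberg adjustment over 14599 genes and a threshold of 0.05. CPM are TMM-scaled. RPKM were used for levels between genes and in alternatives. DESeq2 1.42.0, limma 3.58.1, other filters, the library-number series, pseudocounts of 0.1 and 1, and left-out libraries and animals were alternatives. The test was checked on simulated counts of libraries drawn independently, so that check does not cover the pairing by animal.

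The animal numbers in the labels pair NIR with IR libraries: deviations from group means correlated within WT animals at 0.672, 0.504 and 0.412 and within CM animals at 0.790, 0.844 and 0.125. The animal is the replicate block. No pair of libraries agreed within sampling noise. Each genotype has 3 animals. The main fit took the 12 libraries as separate and left this pairing out, so its p-values and intervals ignore it. In CM against WT, both libraries of an animal enter its estimate of spread. Only the fits with the animal as a block used the pairing. Depth limits precision most under 1 CPM, where values rest on few counts.

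The 9 genes and the lists were chosen with earlier results of these data known. All 9 are named, with pathway genes called in either fit (at most 4 per list, comparison and direction), ligands by level, 3 p53 targets, and the 3 nearest profiles of the 3 most variable genes.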

Additional observations from a re-analysis of the deposited data

How the results depend on the processing

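Of 1530 values of the 9 genes under other settings, 1335 kept their direction and their side of the threshold, 22 lost a call, 21 gained one and 152 changed sign. The cause of these changes was not tested. In WT, 0 of the 9 genes were called without the replicate block; DESeq2, the replicate block and a fit of the 2 groups compared called 2, and limma-voom, no filter on low counts and limma on log2(RPKM + 0.1) or log2(RPKM + 1) called 1. In CM DESeq2 called 1. For the averaged response 2 were called, and 1 with limma-voom, a mean of at least 1 CPM, the library-number series or log2(RPKM + 1). Leaving out libraries gave 0 to 2 members called in WT, 0 to 1 for CM against WT without irradiation, 0 to 2 after it, and 0 to 2 for the averaged response.

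Over all genes, DESeq2 called 140 in WT, 18 in CM, 922 for CM against WT before and 652 after irradiation, and 169 for the averaged response, where edgeR called 17, 1, 237, 97 and 45. limma-voom called 31 in WT and 156 for CM against WT after irradiation. A mean of at least 1 CPM gave 10 in WT and 29 for the averaged response. The replicate block gave 163 in WT, 0 in CM and 302 for the averaged response, and it changed no call of the 9 genes beyond Eda2r and Tnfrsf10b in WT. CM against WT could not be fitted with the block, since an animal has 1 genotype. The library-number series gave 14 for CM against WT after irradiation. The fit of 2 groups gave 92 in WT, 0 in CM, 78 for CM against WT without irradiation and 0 after it. limma on log2(RPKM + 0.1) gave 40 in WT, and on log2(RPKM + 1) it gave 52 in WT, 162 for CM against WT after irradiation and 1 for the CM minus WT response. Leaving out libraries gave 1 to 101 genes in WT, 0 to 3 in CM, 2 to 2497 for CM against WT without irradiation, 1 to 1000 after it and 1 to 73 for the averaged response. Leaving out both libraries of CM animal 2 gave the most genes in each of these, and leaving out its IR library alone gave the same number in CM.

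Under settings other than left-out libraries, the 20 values that changed sign lay between -0.0048 and 0.037. In the averaged response the changed log2 values were 0.0039, 0.0017, 0.0097, 0.0038, 0.0030, 0.011 and 0.011 for Casp8, 0.000027, 0.0065, 0.0014 and 0.0013 for Tnfrsf1a, 0.00042 for Fadd, and -0.0044 and -0.0043 for Ripk1. They were -0.0048, -0.0048 and -0.0015 for Casp8 in CM, 0.0038 for Casp8 in WT, -0.00044 for Cflar in WT, and 0.037 for Ripk1 in CM against WT after irradiation. The next ranges are over left-out libraries and animals. In WT after irradiation they were -0.065 to 0.18 for Tnfrsf1a, -0.075 to 0.087 for Fadd, -0.071 to 0.073 for Casp8, -0.042 to 0.054 for Cflar and -0.0059 to 0.076 for Ripk1. In CM they were -0.32 to 0.15 for Tnfrsf1a, -0.15 to 0.068 for Fadd, -0.12 to 0.17 for Casp8, -0.19 to 0.069 for Cflar, -0.32 to 0.46 for Fas and -0.091 to 0.061 for Ripk1. For CM against WT without irradiation they were -0.20 to 0.019 for Tnfrsf1b, -0.049 to 0.18 for Fadd, -0.010 to 0.27 for Casp8 and -0.042 to 0.10 for Ripk1. For that comparison after irradiation they were -0.041 to 0.087 for Fadd, -0.081 to 0.062 for Ripk1, -0.14 to 0.48 for Fas and -0.052 to 0.23 for Cflar. For the CM minus WT response they were -0.34 to 0.13 for Tnfrsf1a, -0.16 to 0.056 for Fadd, -0.12 to 0.17 for Casp8, -0.20 to 0.065 for Cflar and -0.12 to 0.036 for Ripk1. For the averaged response they were -0.15 to 0.087 for Tnfrsf1a, -0.067 to 0.040 for Fadd, -0.095 to 0.037 for Cflar, -0.033 to 0.044 for Ripk1 and -0.066 to 0.080 for Casp8.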
